A study of Homo sapiens with 4 samples.

Results

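The 10 genes described here encode secreted inflammatory signals: the chemokines CCL2, CCL20, CXCL1, CXCL2, CXCL3 and CXCL8, and the cytokines IL6, IL1B, IL11 and LIF. They were measured in U87 cells, a long-established line grown from a human glioma. QK, the gene of the RNA-binding protein QKI, had been knocked down in them. Of 4 arrays, 2 read cells that were also transduced with miR-20a and 2 read cells transduced with miR-NT, a scrambled microRNA labelled non-targeting. The knockdown was shared by both groups, and no array of U87 with normal QK was analysed here. The comparison is therefore of miR-20a with miR-NT within QK-knockdown cells of a single line. How far QK was lowered cannot be read from these arrays. Members were taken as the probe sets whose platform annotation names exactly 1 gene, that gene being listed. All 10 genes had such a probe set, 15 in all among the 41930 probe sets of the table, and 0 were annotated under the older name IL8. CXCL2 had 3 probe sets, CXCL8, IL1B and IL11 had 2 each, and the other 6 genes had 1.

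Chemokines are small secreted proteins that draw leukocytes along a gradient through G protein-coupled receptors. CXCL1, CXCL2, CXCL3 and CXCL8 carry the ELR motif and bind CXCR2, the receptor that recruits neutrophils and also acts on endothelium. CCL2 recruits monocytes through CCR2, and CCL20 recruits lymphocytes and dendritic cells through CCR6. IL6, IL11 and LIF signal through the shared receptor chain gp130 to STAT3, and IL1B, acting through IL1R1 and NF-kB, induces many of the others. In gliomas several of these factors are known to be made by the tumour cells themselves.

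The microRNA supplied belongs to the miR-17 family, whose members share a seed, bases 2 to 8, through which targets are recognised. The labels do not name the arm, and the sequence of miR-20a-5p (chr13:91351072-91351094, GRCh38.p14, plus strand) is shown with relatives of the same seed because it is what separates the groups. Capitals mark the seed, and the sequences are those of RefSeq.
hsa-miR-20a-5p: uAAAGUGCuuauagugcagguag
hsa-miR-17-5p: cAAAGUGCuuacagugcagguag
hsa-miR-93-5p: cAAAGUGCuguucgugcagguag
hsa-miR-106b-5p: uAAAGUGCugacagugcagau
In all, 8 mature microRNAs of that table shared the seed AAAGUGC. Counted from the first base, miR-17-5p was identical to miR-20a-5p at 21 of 23 positions. The transcript ends of the 10 genes were not searched for seed matches here.

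The stretches of 150 bases just before the transcription start are shown for 6 members, because these genes are textbook NF-kB and AP-1 targets and the CXCL genes are close relatives that differed in their values below. Capitals mark matches, on either strand, to the NF-kB consensus, to GGANTTTCC (a shorter NF-kB form that overlaps the consensus), to TGANTCA (AP-1) and to TATAAA (the TATA box). Sequences are RefSeq's, in build GRCh38.p14, 5′ to 3′ on the gene's strand.
CXCL8 chr4:73740419-73740568, plus strand: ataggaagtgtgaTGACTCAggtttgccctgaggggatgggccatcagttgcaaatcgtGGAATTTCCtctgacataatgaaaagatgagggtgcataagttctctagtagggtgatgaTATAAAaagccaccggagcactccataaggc
CXCL3 chr4:74038690-74038839, minus strand: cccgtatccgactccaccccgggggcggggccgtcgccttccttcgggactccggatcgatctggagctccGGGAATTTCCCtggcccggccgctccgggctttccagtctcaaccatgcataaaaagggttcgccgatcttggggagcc
CXCL2 chr4:74099196-74099345, minus strand: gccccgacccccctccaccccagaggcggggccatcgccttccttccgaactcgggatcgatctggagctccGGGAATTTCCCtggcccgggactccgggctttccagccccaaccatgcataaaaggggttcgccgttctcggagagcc
CXCL1 chr4:73869243-73869392, plus strand: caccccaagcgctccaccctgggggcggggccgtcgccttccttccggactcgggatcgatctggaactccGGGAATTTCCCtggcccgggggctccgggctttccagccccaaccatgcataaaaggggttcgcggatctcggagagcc
IL6 chr7:22727050-22727199, plus strand: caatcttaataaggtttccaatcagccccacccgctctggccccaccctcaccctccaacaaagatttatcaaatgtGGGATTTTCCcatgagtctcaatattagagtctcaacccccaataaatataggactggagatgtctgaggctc
IL11 chr19:55370464-55370613, minus strand: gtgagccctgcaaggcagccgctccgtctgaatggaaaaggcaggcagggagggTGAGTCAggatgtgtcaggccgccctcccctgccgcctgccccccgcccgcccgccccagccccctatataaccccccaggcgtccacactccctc
RefSeq windows of 300 bases, 250 before and 50 after the start, were matched for 8 of the 10 genes, all but CCL2 and LIF. The NF-kB consensus was found in 5 of the 8 (CXCL1, CXCL2, CXCL3, IL6 and CCL20), against 11.3% of 35116 promoters of that length. GGANTTTCC was also found in 5 (CXCL1, CXCL2, CXCL3, CXCL8 and IL6), against 1.64%. TGANTCA was found in CXCL8 and IL11 (7.71% of all promoters) and TATAAA in CXCL8 and CCL20 (11.5%). IL1B, whose stretch is not shown, matched none of these motifs in its window. The motifs were chosen knowing these promoters, so the counts are a description, and a match is not a shown binding site. CXCL1, CXCL2 and CXCL3 carried the same run GGGAATTTCCC, and in a global alignment the 300-base windows of CXCL1 and CXCL3 had 254 identical bases.

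No probe set of the 10 genes passed the test after adjustment over all probe sets (limma with Benjamini-Hochberg adjustment, threshold 0.05; 0 of 15, lowest adjusted p = 0.14), against 57 of 41920 probe sets in all, a background of 0.136%. Before adjustment, 5 of 15 had a p under 0.05, or 33.3%, against 17.9% of all probe sets. Of these, 3 were higher in miR-20a cells (background 9.46%) and 2 were lower (background 8.4%), and they belonged to 4 genes. CCL2 and CXCL8 had higher values with miR-20a, by 1.54-fold and 1.51-fold. CXCL3 and 1 of the 2 probe sets of IL11 had lower values, by 1.33-fold and 1.32-fold. The other 10 probe sets had log2 changes between -0.17 and 0.18. The median change was 0.04 over the 15 probe sets and -0.02 over all probe sets. The groups did not overlap for 9 of the 15, or 60%, against 48.9% of all probe sets, so a separation of 2 arrays from 2 was common here.

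**Figure D1:**
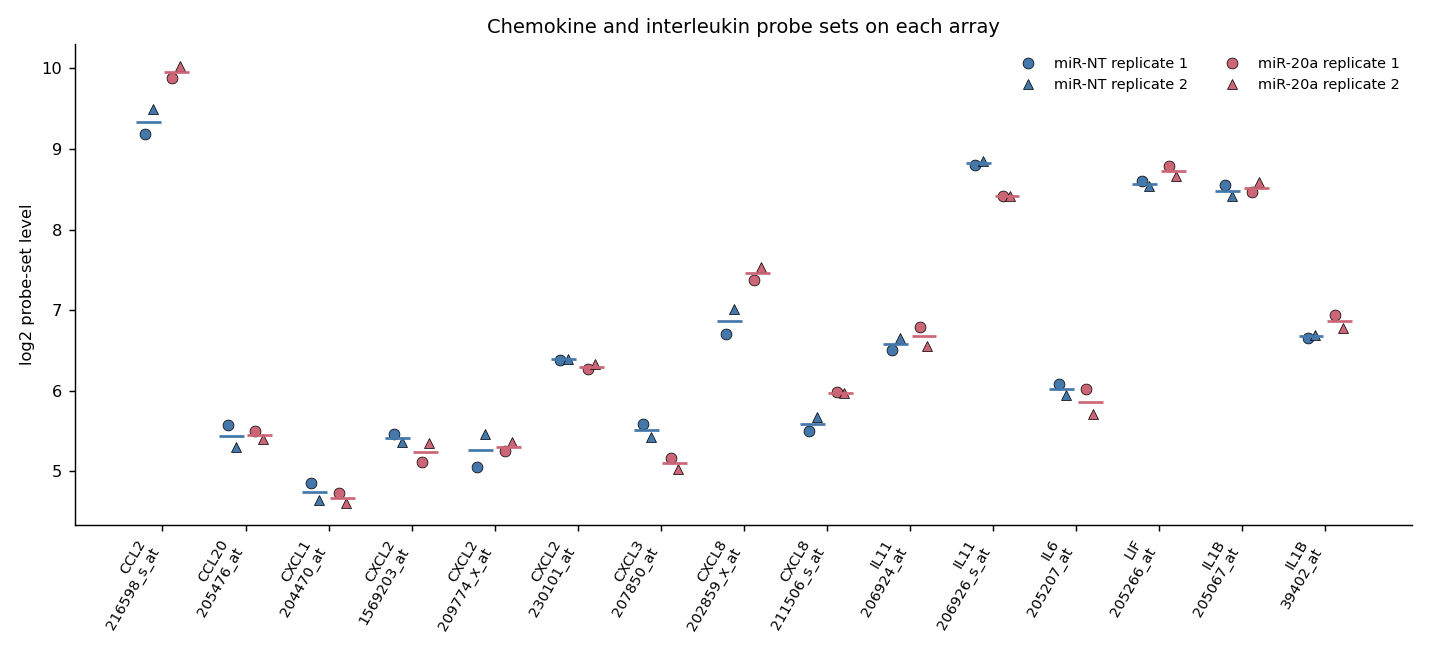
Log2 level (vertical axis) of each of the 15 probe sets on the 4 arrays; circles and triangles are replicates 1 and 2, blue is miR-NT, red is miR-20a, and bars are group means. CCL2 and both probe sets of CXCL8 are higher on both miR-20a arrays, CXCL3 and 206926_s_at of IL11 lower; levels of different probe sets are not comparable with each other.

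**Figure D2:**
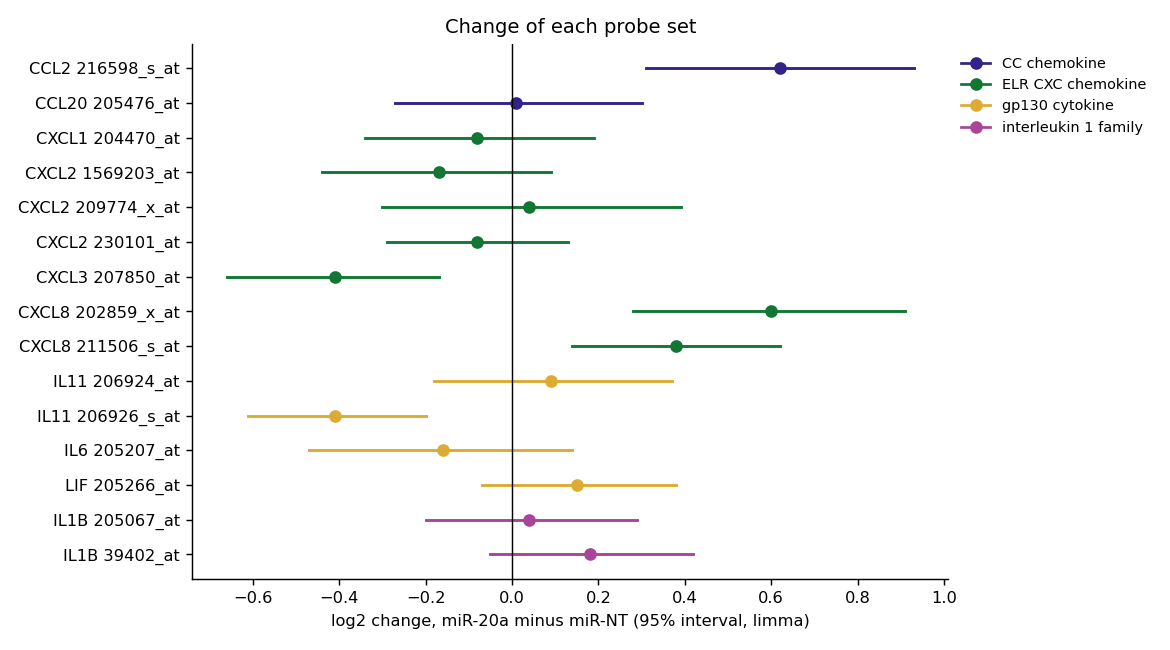
Log2 change, miR-20a minus miR-NT, of each probe set (dot) with its 95% interval from limma's moderated spread, coloured by the type of factor. The intervals of 5 probe sets leave out 0; none of the 15 passed after adjustment over all probe sets.

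Among the CC chemokines, CCL2 had the largest change of the 15 probe sets. Its single probe set, 216598_s_at, read 9.18 and 9.49 log2 units with miR-NT and 9.88 and 10.03 with miR-20a. Both miR-20a arrays were above both miR-NT arrays, and within each group replicate 2 was the higher. The means were 9.33 ± 0.22 and 9.95 ± 0.11 (SD, n = 2 each), a log2 change of 0.62 ± 0.13 (SE, limma unadjusted p = 0.0022, adjusted p = 0.14). An equal or larger increase was seen in 242 of 41920 probe sets, or 0.577%. CCL20 (205476_at) read 5.58 and 5.30 with miR-NT and 5.50 and 5.40 with miR-20a, so the miR-20a arrays lay within the miR-NT range. Its change was 0.01, with a 95% interval from -0.27 to 0.30.

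CXCL8, interleukin-8, was higher with miR-20a by both of its probe sets. Probe set 202859_x_at read 6.70 and 7.02 with miR-NT and 7.37 and 7.54 with miR-20a. Its means were 6.86 ± 0.23 and 7.46 ± 0.13 (SD, n = 2 each), a change of 0.60 ± 0.13 log2 units (SE, limma unadjusted p = 0.0032, adjusted p = 0.14). Probe set 211506_s_at read 5.50 and 5.68 with miR-NT and 5.98 and 5.97 with miR-20a, a change of 0.38 ± 0.10 (SE, limma adjusted p = 0.16). Neither probe set overlapped between groups, and the gap between the miR-NT arrays, 0.32 and 0.19, had the same direction in both. The 95% intervals of the probe sets, 0.28 to 0.91 and 0.14 to 0.62, overlapped each other.

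The other ELR chemokines did not share the higher values of CXCL8. CXCL3 (207850_at) read 5.59 and 5.43 with miR-NT and 5.16 and 5.03 with miR-20a, with no overlap. Its change was -0.41 ± 0.10 log2 units (SE, limma unadjusted p = 0.0054, adjusted p = 0.15), and 417 of 41920 probe sets, or 0.995%, had an equal or larger decrease. CXCL1 (204470_at) read 4.86 and 4.64 with miR-NT and 4.73 and 4.61 with miR-20a, which overlap, and its change of -0.08 had a 95% interval from -0.34 to 0.19. The probe set of CXCL2 with the highest mean, 230101_at, read 6.38 and 6.40 with miR-NT and 6.27 and 6.33 with miR-20a. Although both miR-20a arrays were lower, the change was only -0.08 (95% interval -0.29 to 0.13). The other probe sets of CXCL2 had a change of -0.17 (1569203_at; between -0.29 and -0.06 with 1 array left out) and 0.04 (209774_x_at), and the latter spread most among the miR-NT arrays, at 5.06 and 5.46. Whether the change of CXCL8 differs from those of CXCL1, CXCL2 and CXCL3 was not tested.

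The platform marks probe sets whose probes can match more than 1 transcript with the endings _s_at and _x_at, which holds for CCL2, both of CXCL8, 206926_s_at of IL11 and 209774_x_at of CXCL2. CXCL1, CXCL2 and CXCL3 are closely related genes, and whether their probe sets also read each other's transcripts was not tested. Some members read low on this scale: 8 of the 15 probe sets had a mean below the 40th percentile of all probe sets, 6.51 log2 units. By definition 40% of all probe sets lie below that level. The 8 took in all probe sets of CXCL1, CXCL2, CXCL3, CCL20 and IL6, while all of CCL2, LIF, IL1B and IL11 were above it. Without detection calls, the levels of those 8 cannot be separated from background. A mean above that level does not show detection of the other probe sets either. CD3E, a T cell marker, read 7.71 to 8.08 on these arrays.

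Among the gp130 cytokines, IL11 gave unlike readings from its 2 probe sets. Probe set 206926_s_at read 8.80 and 8.85 with miR-NT and 8.42 on each miR-20a array, the closest replicates of any group here. Its means were 8.82 ± 0.03 and 8.42 ± 0.0033 (SD, n = 2 each), a change of -0.41 ± 0.09 log2 units (SE, limma unadjusted p = 0.0027, adjusted p = 0.14). Probe set 206924_at, which read lower, was at 6.51 and 6.66 with miR-NT and 6.79 and 6.56 with miR-20a, which overlap, with a change of 0.09 (95% interval -0.18 to 0.37). That interval and the one of 206926_s_at, -0.61 to -0.20, did not overlap, the difference between the probe sets was not tested, and averaging both probe sets gave a change of -0.16 (limma adjusted p = 0.35).

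IL6, the founding member of this family, read 6.09 and 5.95 with miR-NT and 6.02 and 5.71 with miR-20a. Its change was -0.16, with a 95% interval from -0.47 to 0.14, and it was -0.32 with miR-20a replicate 1 left out and -0.01 with replicate 2 of that group left out. LIF, leukaemia inhibitory factor, which is counted with these cytokines though not named an interleukin, read 8.60 and 8.54 with miR-NT and 8.79 and 8.66 with miR-20a. Both miR-20a arrays were higher, by a change of 0.15 (95% interval -0.07 to 0.38), which lay between 0.09 and 0.22 when 1 array was left out. None of the 3 cytokines had a p past the adjusted threshold, and their signs went both ways.

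IL1B, the inducer upstream of many of these genes, showed little difference. Probe set 205067_at read 8.55 and 8.41 with miR-NT and 8.46 and 8.59 with miR-20a, a change of 0.04 with a 95% interval from -0.20 to 0.29. Probe set 39402_at read 6.66 and 6.69 with miR-NT and 6.94 and 6.78 with miR-20a, without overlap, and had a change of 0.18 (95% interval -0.05 to 0.42), between 0.11 and 0.26 with 1 array left out. Both intervals leave out a change as large as the 0.62 of CCL2.

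**Figure D3:**
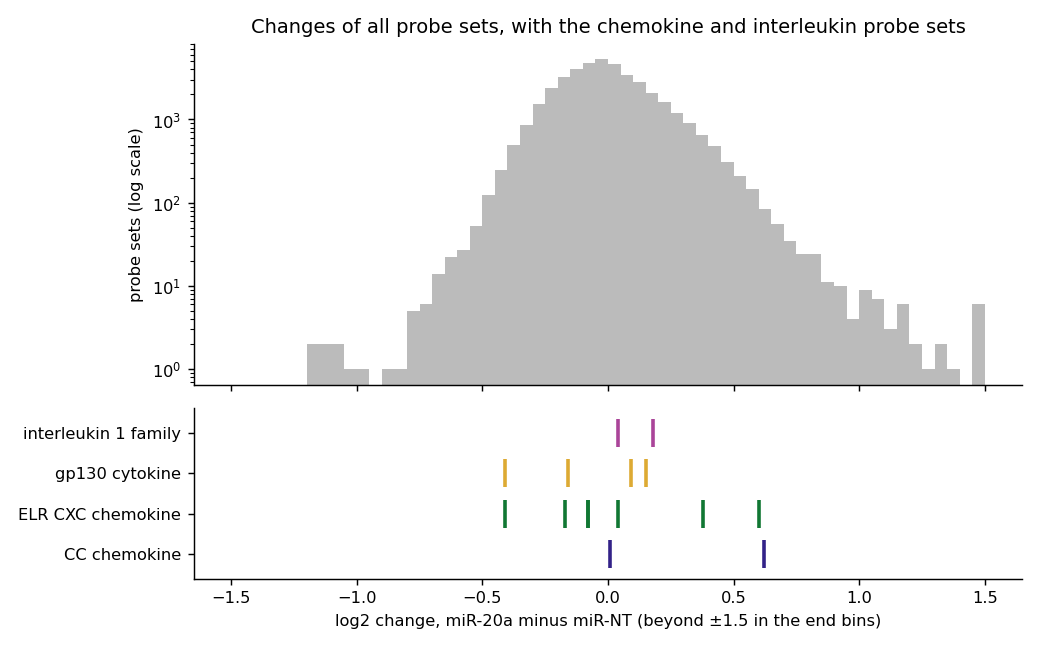
Upper panel: number of probe sets (log scale) by log2 change, miR-20a minus miR-NT, over all 41920 tested; lower panel: the 15 probe sets of the chemokines and interleukins by type. CCL2 at 0.62 and CXCL8 at 0.60 lie in the right shoulder, CXCL3 and IL11 at -0.41 in the left, with the other probe set of CXCL8 at 0.38 and the remaining 10 between -0.17 and 0.18.

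The array profile most like that of CCL2 was sought among 18294 genes outside the 10, by the Euclidean distance between levels on the 4 arrays, each centred on its own mean. The 3 nearest were CKS2, a subunit of cyclin-dependent kinases, at a distance of 0.034 log2 units, TMEM14C, a mitochondrial membrane protein, at 0.041, and COXFA4, a subunit associated with cytochrome c oxidase, at 0.05. Their changes were 0.61, 0.60 and 0.58, and 142 genes lay within 0.2 log2 units of CCL2. With 4 arrays such likeness is a description only.

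The genes through which these factors act and are controlled were counted by the highest-mean probe set of each gene. Of 112 measured genes in 7 lists, 0 passed after adjustment (limma; background over 18304 genes 0.164%). Before adjustment 27 had a p under 0.05, or 24.1%, against 20.2% of all genes, 12 higher (background 11.8%) and 15 lower (background 8.33%). The median change over all genes was -0.01.

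Among 14 receptors and natural antagonists, 2 higher and 1 lower gene had a limma p under 0.05 before adjustment, with a median change of 0.01. IL6ST, which encodes gp130, was at 9.93 ± 0.09 with miR-NT and 10.39 ± 0.01 with miR-20a (SD, n = 2 each), without overlap, a change of 0.46 ± 0.09 log2 units (SE, limma adjusted p = 0.14), with 6 of 7 probe sets of that sign. IL1R1, the signalling receptor of IL1B, had a change of 0.42 ± 0.10 (limma adjusted p = 0.15), with both probe sets higher. ACKR1, an atypical receptor that binds chemokines without signalling, had a change of -0.31.

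Other secreted factors went both ways: 10 of 16 other chemokines and 12 of 19 other interleukins and haematopoietic cytokines had the lower mean with miR-20a, as had 9698 of all 18304 genes. Of the 16 chemokines, 0 higher and 3 lower genes had an unadjusted limma p under 0.05: CCL8, CXCL10 and CCL28, at -0.24, -0.24 and -0.21. Of the 19 cytokines, 1 higher and 3 lower genes had such a p. CSF3, the granulocyte colony-stimulating factor, read 8.74 and 8.71 with miR-NT and 8.22 and 8.16 with miR-20a, a change of -0.54 ± 0.09 log2 units (SE, limma adjusted p = 0.11). Oncostatin M, OSM, another gp130 cytokine, had a change of -0.41 (both probe sets lower) and IL7 one of 0.34. The medians of both lists were -0.04 and -0.03.

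Signalling genes went both ways. Of 20 NF-kB factors and regulators, 2 higher and 3 lower genes had an unadjusted limma p under 0.05, with a median of 0. NFKB2, which encodes the p100 precursor, had a change of -0.41 with all 3 probe sets lower. TRAF6, an adaptor of IL1 receptor signalling, had a change of -0.28, and the kinase gene IKBKB one of 0.39, with only 1 of 3 probe sets of that sign. Of 15 genes of gp130, JAK and STAT3 signalling, 6 had a higher and 9 a lower mean, and 2 of the higher and 1 of the lower had an unadjusted limma p under 0.05: the phosphatase gene PTPN11 at 0.42 (3 of 6 probe sets of that sign), JAK2 at 0.24 and STAT5A at -0.24. SOCS3 was at -0.17 by its highest-mean probe set, while its other probe sets had changes of -0.49, -0.41 and -0.35.

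Among 13 transcription factors that act on these promoters, 6 had an unadjusted p under 0.05 (limma), 3 in each direction. CEBPD and CEBPB, related C/EBP factors that activate IL6 and CXCL8, had opposite signs. CEBPD read 9.84 and 9.94 with miR-NT and 9.35 and 9.39 with miR-20a, a change of -0.52 ± 0.09 log2 units (SE, limma adjusted p = 0.12), though its other probe set had a change of only -0.02. CEBPB had a change of 0.30 and IRF1 one of -0.29, a sign that only 1 of its 2 probe sets had. JUND was at -0.03 by its highest-mean probe set, while its other probe sets had changes of -0.74, -0.60 and 0.05. Of 15 factors that bind AU-rich elements or act in mRNA decay and stability, 10 had a higher and 5 a lower mean. An unadjusted limma p under 0.05 was seen for 2 of the higher and 1 of the lower. TIAL1 had a change of 0.26, AUH one of 0.32, and ZFP36, tristetraprolin, which promotes decay of inflammatory mRNAs, one of -0.22 (limma adjusted p = 0.26).

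**Figure D4:**
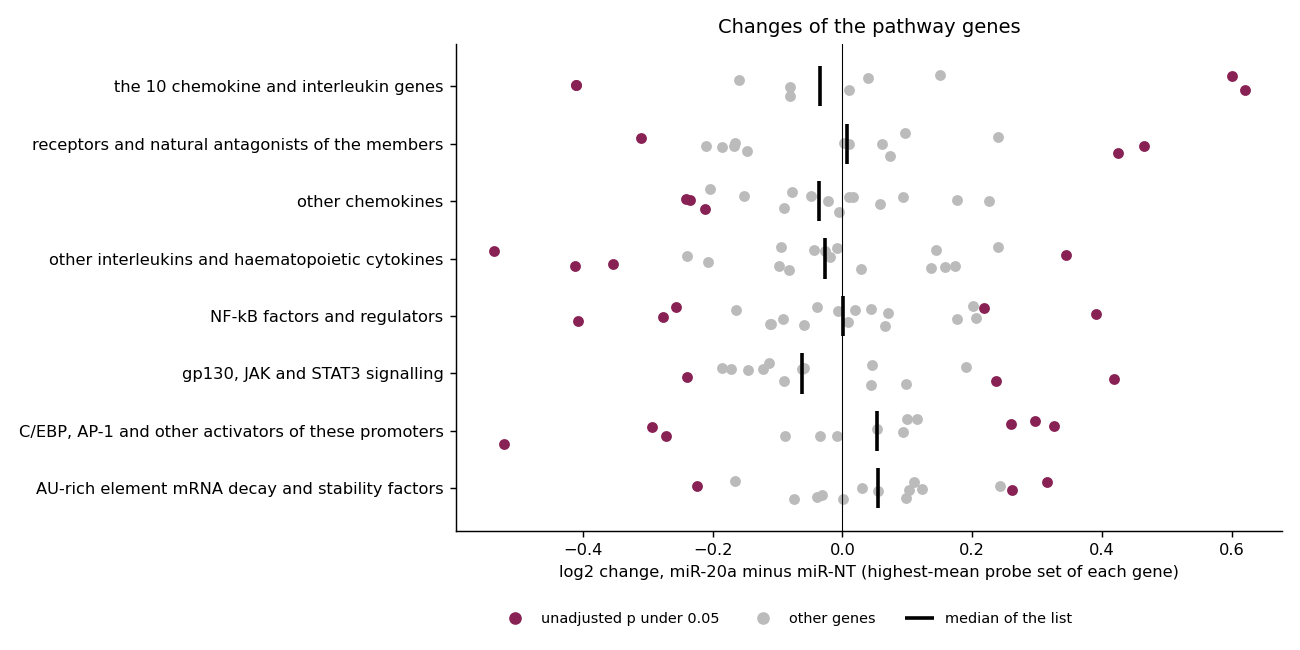
Log2 change, miR-20a minus miR-NT, of each gene by its highest-mean probe set, for the 10 chemokine and interleukin genes and the 7 pathway lists; dark points have an unadjusted limma p under 0.05, grey points do not, and bars are medians (vertical scatter has no meaning). The list medians lie between -0.06 and 0.05, with dark points on both sides except among the other chemokines.

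QKI, knocked down in both groups, read 9.18 and 9.38 with miR-NT and 9.53 and 9.38 with miR-20a by its highest-mean probe set. The arrays correlated at 0.9946 or more within groups and between 0.9907 and 0.9935 across them. The SD of all probe-set levels on an array was 1.845 and 1.850 with miR-NT and 1.904 and 1.890 with miR-20a. The part of this wider spread in the changes was not tested. Among markers of glioma, VIM read between 14.63 and 14.70, CD44 between 12.43 and 12.71 and CHI3L1 between 12.32 and 13.52 log2 units. GFAP read between 6.94 and 7.33, SOX2 between 6.80 and 7.29 and OLIG2 between 6.26 and 6.68. S100B, the lowest of that list, read between 4.79 and 5.05. Of those 10 markers only CHI3L1, the secreted glycoprotein YKL-40, passed, at a change of -1.12 (limma adjusted p = 0.024), a call lost with a replicate block or without either miR-NT array, where no probe set passed, and their summed linear level was 46707 and 45526 with miR-NT and 41249 and 39235 with miR-20a. A sum of linear levels mostly follows its highest markers, here VIM, at a change of -0.02, and CHI3L1. By gene, 4 of the glioma markers had a higher and 6 a lower mean with miR-20a, with a median change of -0.12. Of the markers of other cells, 0 of 11 macrophage, 8 T cell and neutrophil, 8 endothelial and 7 epithelial genes passed the test (limma; before adjustment 2, 1, 1 and 0 of them had a p under 0.05). Of these genes, in the same order, 3, 0, 1 and 2 had a higher mean with miR-20a and 8, 8, 7 and 5 a lower one. Their median changes were -0.07, -0.16, -0.09 and -0.03. The summed linear level of the macrophage markers was 1290 and 1296 with miR-NT and 1152 and 1276 with miR-20a. The sums were 1240 and 1186 against 1050 and 1106 for T cell and neutrophil markers, 1309 and 1287 against 1222 and 1209 for endothelial markers, and 878 and 925 against 883 and 854 for epithelial markers, of which the last overlap between groups. TYROBP, an adaptor of myeloid cells, was the only one of them higher at such a p, at the low readings of 4.19 and 3.97 against 4.42 and 4.77. The highest markers of these lists were AIF1 (8.43 to 8.67), CD3E (7.71 to 8.08), PECAM1 (8.60 to 8.78) and CLDN4 (7.95 to 8.23). These readings were above those of GFAP, SOX2, OLIG2 and S100B. Levels of different probe sets are not comparable, so they do not tell cell types apart. A sign of RNA quality moved with the groups: the ACTB control read higher at its 3′ than its 5′ end by 0.20 and 0.35 log2 units with miR-NT and by 0.52 and 0.46 with miR-20a, and the GAPDH control by 0.22 and 0.22 against 0.27 and 0.28. Its part in the values of CCL2, CXCL8, CXCL3 and IL11, and in those of the pathway genes, was not tested.

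The 5 probe sets with an unadjusted p under 0.05 kept their sign in every setting tried in which they were tested. Most of these settings could not have turned it. Where groups do not overlap, as for these 5, leaving out 1 array cannot turn a sign. The replicate block, the trend and robust fit, the filter and the fit of 1 probe set per gene leave the change itself as it was. Only the normalizations and the averaging of probe sets could turn it. The filter on low levels removed CXCL3 and 211506_s_at of CXCL8. The log2 change lay between 0.47 and 0.77 for CCL2, between 0.44 and 0.76 for CXCL8 by 202859_x_at, between 0.29 and 0.49 for CXCL8 by 211506_s_at, between -0.49 and -0.34 for CXCL3, and between -0.46 and -0.16 for 206926_s_at of IL11. When limma's spread followed a trend with level and was fitted robustly, CCL2 and 206926_s_at of IL11 passed (limma adjusted p = 0.040 and 0.046), in a setting that called 957 probe sets in all.

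**Figure D5:**
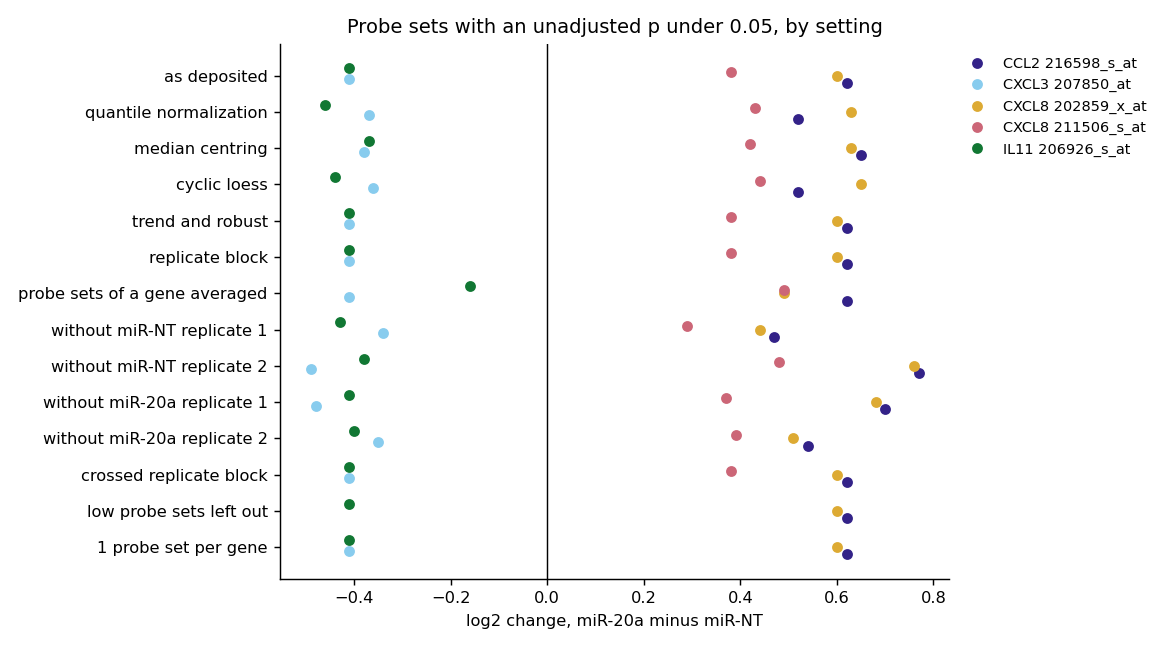
Log2 change, miR-20a minus miR-NT (horizontal axis), of the 5 probe sets with an unadjusted limma p under 0.05, under each setting (rows). Colours are probe sets; CCL2 and CXCL8 stay right of 0 and CXCL3 and IL11 left, and the value of IL11 moves to -0.16 where its probe sets are averaged.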

How the data were processed

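Per the labels, 6 µg of total RNA per sample gave the biotinylated cRNA for 1 Affymetrix array. The deposited table holds log2 levels of probe sets, between 3.45 and 15.07. Per the submitters' processing notes, affy, an R package, was used, and the normalization is not given in the sources used here. That the base is 2 was judged from the range. No label says that replicates were separate cultures, so the spread behind each p-value may be technical.

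Gene names came from GEO's platform annotation (37465 name 1 gene, 1727 several, 2728 none). After leaving out 10 control probe sets, a model of group was fitted to all 41920, unfiltered, with lmFit and eBayes of limma 3.58.1 (R 4.3.3), with two-sided p-values adjusted over all of them by the Benjamini-Hochberg method. The prior SD of eBayes was 0.103, on 4.603 degrees of freedom. An exact permutation test of 2 arrays against 2 cannot go below 0.333. In 20 simulations of this fit with 200 changed probe sets each, 1.12% of log2 changes of 0.5, 80.6% of 1 and 97% of 1.5 were recovered. Of the simulated calls, 5.14% were false. The number of changed probe sets was set by choice, and recovery after adjustment depends on it. On the arrays 17.9% of all probe sets had an unadjusted limma p under 0.05, so these percentages may not carry over.

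All 10 genes were named whatever their value, and of each pathway list the genes past the threshold and the 3 with the smallest p. SOCS3 and JUND were added because other probe sets of theirs differed from the highest-mean one. They were not the only such genes of the lists. ZFP36L1 had a change of 0.05 by its highest-mean probe set and -0.67 by another. For IRAK1 these were 0.21 and -0.56, for IL11RA 0.06 and 0.42, and for CCR2 -0.15 and -0.42. The members and lists were chosen with earlier results of these data known. Other settings tried were quantile, median and cyclic loess normalization, a filter on low levels, a trend and robust fit, a replicate block, 1 or averaged probe sets per gene, other thresholds and leaving out each array.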

Additional observations from a re-analysis of the deposited data

How the results depend on the processing

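Under the deposited scaling 57 probe sets passed. This became 334 with low probe sets left out, 957 with a trend and robust fit, 153 with the probe sets of a gene averaged and 0 with a replicate block (limma, 5754 at an unadjusted p under 0.05). Without 1 array it lay between 0 (without either miR-NT array; 3231 and 5097 at an unadjusted p under 0.05) and 66. Of the 15 chemokine and interleukin probe sets, 0 passed, also with the replicate block, which removed all 57 calls of the table; 2 passed with the trend and robust fit, CCL2 at 0.62 and IL11 at -0.41, and 5 had an unadjusted p under 0.05. Of the pathway genes 0 passed, against 2 with low probe sets left out, 4 with the trend and robust fit and 1 with averaged probe sets. Averaging turned the change of 206924_at of IL11 from 0.09 to -0.16 and that of 209774_x_at of CXCL2 from 0.04 to -0.07, since the average takes in the other probe sets. Leaving out 1 array turned the sign of small changes in 5 probe sets, with ranges from -0.19 to 0.04 for CXCL1, -0.03 to 0.12 for 205067_at of IL1B, -0.13 to 0.15 for CCL20, -0.02 to 0.21 for 206924_at of IL11 and -0.16 to 0.25 for 209774_x_at of CXCL2. The same-numbered arrays' deviations correlated at -0.1211, so the numbers were not taken to pair the samples. A crossed replicate block, added after seeing the data, gave 0 calls in all (limma, 7343 at an unadjusted p under 0.05) and 0 among the chemokines and interleukins. Beyond the number of features or arrays fitted, the cause of these shifts was not tested. Background correction could not be varied from these values.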
